A study of Sus scrofa domesticus with 150 samples.

Results

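The data described here are the 12 wound center biopsies taken on day 1 and day 5 after wounding, out of 150 RNA-seq samples of a time course of skin wound healing in pigs. They were chosen by the sample labels: the 6 center samples of day 1 and the 6 center samples of day 5, which came from the same 3 animals (pigs 1323, 1324 and 1325). All 6 pigs of the series were Yorkshire-mix females of 45-50 Kg. Each received 12 full-thickness circular excisions, 2 cm across, which were covered with Telfa Clear and Tegaderm and given no treatment other than a topical antibiotic at the biopsy site. Biopsies of 3.5 mm were kept in RNALater, and poly-A RNA was sequenced in paired reads. On day 1 each of the 3 pigs gave the centers of wounds A and L, and on day 5 those of wounds B and K, so that day and wound position cannot be told apart. Edge biopsies of the same 12 wounds, day 3 centers (wounds F and G) and day 0 skin of the same 3 pigs were used beside them for comparison. Day 0 skin, 1 sample per pig, was the entire excised tissue rather than a 3.5 mm biopsy. The part of this difference in the day 0 values was not tested.

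A skin wound is first sealed by a clot and invaded by neutrophils and then monocytes, which kill microbes, clear debris and release cytokines such as the interleukin-1 family, TNF and chemokines. Over the following days fibroblasts and new capillaries grow into the wound and build granulation tissue, a provisional tissue of fibronectin, hyaluronan and young collagen in which many cells divide. Part of the fibroblasts become myofibroblasts, which carry smooth muscle actin and pull the wound together, while keratinocytes close the surface from the edges.

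The 12 libraries held 14034086 to 22251005 counted fragments. The center samples were checked against markers of the layers a full-thickness wound removes. Summed keratinocyte genes stood at 62355 to 93768 CPM (counts per 1e6 counted fragments, with TMM factors) in day 0 skin and at 58339 to 81549 CPM in the edge samples of day 1. In the centers they stood at 264 to 837 CPM in 5 of the 6 day 1 samples and at 225 to 829 CPM in all 6 day 5 samples. The exception was day 1 wound A of pig 1325, at 24492 CPM. Skeletal muscle genes summed to 11827 CPM in day 1 wound L and to 1902 CPM in day 5 wound K of pig 1325, against at most 33.1 CPM in the other 10 samples. These 3 libraries stand apart, and the counts below are also given without them. As only 1 sample of pig 1325 is then left and the pig is a block, that fit rests on pigs 1323 and 1324. The plot of summed marker genes shows all 12 samples.

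**Figure D1:**
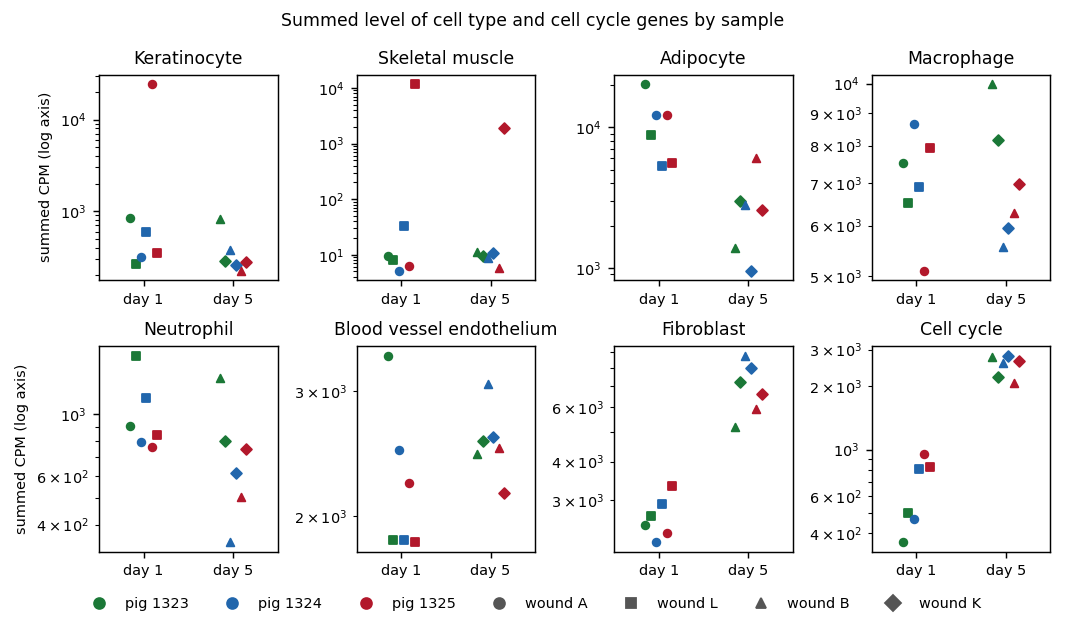
Summed level (CPM, log axis) of the genes of 8 lists in each of the 12 wound center samples, by day; colors mark the pig and symbols the wound. Keratinocyte genes are high in 1 day 1 sample of pig 1325 and skeletal muscle genes in 2 samples of that pig, while fibroblast and cell cycle genes are higher in all 6 day 5 samples than in any day 1 sample.

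Between day 1 and day 5, genes of the wound center changed in both directions. Of 14103 genes tested with edgeR's quasi-likelihood test and Benjamini-Hochberg adjustment, with the pig as block, 2190 were higher (15.5%) and 1960 lower (13.9%) on day 5 at an adjusted p below 0.05. The counts of list members below stand beside these shares. At least 2-fold changes numbered 1003 upward and 775 downward. The median log2 fold change over all genes tested was -0.056. Without TMM factors the split was 1732 higher and 3018 lower, with the median of all genes shifted by a further -0.11 on the log2 scale. Without the 3 libraries of pig 1325 named above, 1922 genes were higher and 1600 lower. The 12 samples are 2 wounds from each of 3 pigs, so that the spread includes wounds of the same animal. In these bulk samples, fewer cells of a type and less RNA per cell cannot be told apart.

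The most abundant transcripts changed rank. On day 1 the top 5 genes by mean share of counts were EEF1A1, a translation factor (0.933% ± 0.132 SD, n = 6), COL3A1 (0.715% ± 0.136), the iron store FTH1 (0.689% ± 0.149), the fat cell hormone ADIPOQ (0.485% ± 0.28) and COL1A1 (0.454% ± 0.0803). On day 5 they were COL1A1 (2.65% ± 0.782 SD, n = 6), COL3A1 (2.31% ± 0.572), COL1A2 (1.58% ± 0.353), EEF1A1 (0.873% ± 0.0916) and SPARC (0.796% ± 0.172). FTH1 was one of 6 rows with that symbol and EEF1A1 of 2, so that their reads may be split between copies. Per length of gene, in the deposited FPKM, the median of COL1A1 was 708 on day 1, below COL3A1 at 1108, and 4138 on day 5, above COL3A1 at 3672.

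**Figure D2:**
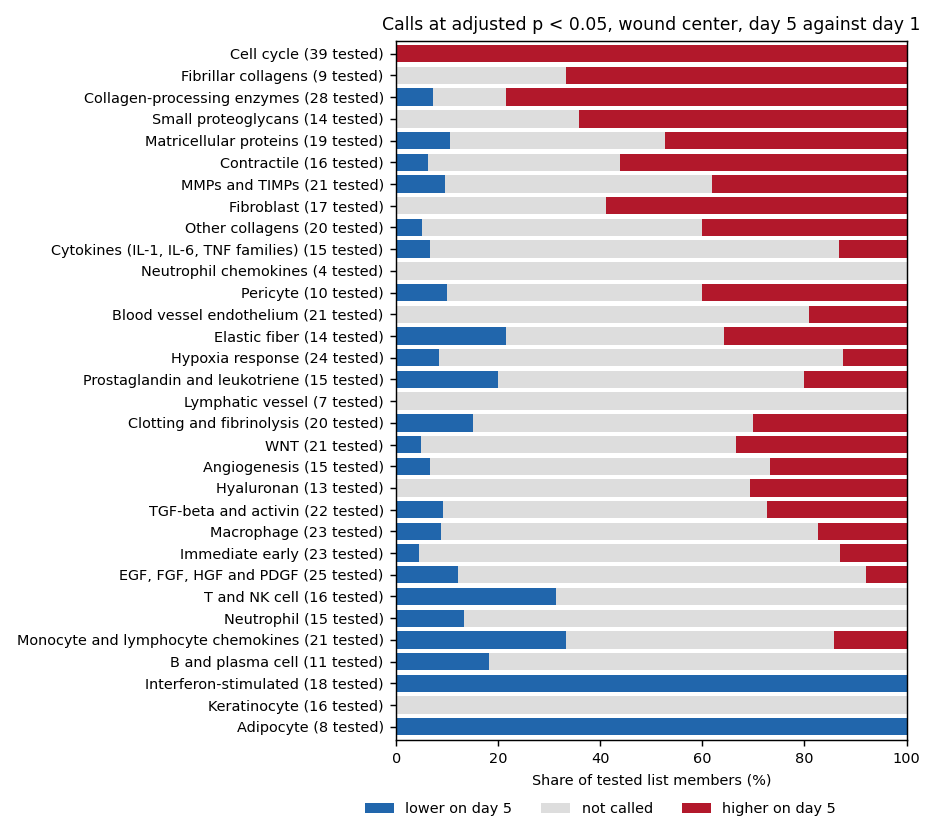
Share of the tested members of 32 gene lists (%) that were higher (red), lower (blue) or not called (grey) on day 5 at an adjusted p below 0.05, ordered by the median log2 fold change of the list. Cell cycle genes are all higher, interferon-stimulated and adipocyte genes all lower. Of the matrix lists, 6 of 9 fibrillar collagens, 22 of 28 collagen-processing enzymes and 9 of 14 proteoglycans are higher. So are 9 of 19 matricellular genes, 8 of 20 other collagens, 8 of 21 MMPs and TIMPs, 5 of 14 elastic fiber genes and 4 of 13 hyaluronan genes.

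Genes of the collagen matrix rose in the wound center by day 5. Of 9 fibrillar collagen genes tested, the chains of the fibers that give skin its strength, 6 rose and none fell, and all 6 that rose had every day 5 value above every day 1 value (8.67% of all genes tested did). Their median log2 fold change over the list was 1.80. Summed over the list they made up 1.36 to 1.96% of all counts on day 1 and 4.91 to 10.6% on day 5. In day 0 skin of these pigs the share was 3.72 to 5.62%. COL1A1, the main chain of type I collagen, was at 3001 to 5110.5 CPM (median 4540.4) on day 1 and 17053 to 43256 CPM (median 26357) on day 5, with no overlap between the days (log2 fold change 2.65 ± 0.25 SE, adjusted p = 4.81e-05). COL3A1, the type III collagen of young tissue, was at 5234 to 8971 CPM (median 6885) on day 1 and 14520.4 to 34480.3 CPM (median 22858) on day 5 (log2 fold change 1.80 ± 0.24 SE, adjusted p = 0.000331). Again the days did not overlap. COL5A1, which nucleates fibrils, was at 527 to 820.3 CPM (median 593) on day 1 and 2734 to 7915 CPM (median 3418) on day 5 (log2 fold change 2.76 ± 0.27 SE, adjusted p = 5.34e-05). COL11A1, a minor fibril collagen, went from 0.0596 to 4.14 CPM (median 0.759) on day 1 to 8.04 to 67.0 CPM (median 14.4) on day 5 (log2 fold change 4.12 ± 0.88 SE, adjusted p = 0.00585). The 3 members that were not called were COL5A3, COL24A1 and COL27A1.

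Of 20 other collagens, 8 rose and 1 fell. COL12A1, which sits on the surface of collagen fibrils, rose from 81.4 to 201 CPM (median 128) on day 1 to 839.8 to 1638 CPM (median 1197) on day 5 without overlap (log2 fold change 3.30 ± 0.23 SE, adjusted p = 1.17e-05). The anchoring fibril collagen COL7A1 also rose (log2 fold change 4.28 ± 1.28 SE, adjusted p = 0.0286), but its values overlapped: day 1 wound A of pig 1325, the library high in keratinocyte genes, stood at 114 CPM, the other day 1 samples at most at 5.06 CPM, and day 5 at 35.4 to 448 CPM. Without that library the log2 fold change of COL7A1 was 5.46 (adjusted p = 0.000158). COL6A6 was the collagen that fell, from 28.1 to 58.5 CPM (median 40.3) on day 1 to 0.861 to 16.4 CPM (median 4.67) on day 5 (log2 fold change -2.88 ± 0.52 SE, adjusted p = 0.00246).

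Most enzymes that modify, fold and crosslink collagen rose. Of 28 tested, 22 rose and 2 fell, with a median log2 fold change of 1.54, and 19 had no overlap between the days. P4HA3, a subunit of prolyl 4-hydroxylase, which stabilizes the triple helix, went from 2.48 to 7.71 CPM (median 5.00) on day 1 to 49.4 to 128 CPM (median 75.0) on day 5 (log2 fold change 4.07 ± 0.24 SE, adjusted p = 7.48e-06). The crosslinking enzymes LOX and LOXL1 were at 58.8 to 121 CPM (median 92.3) on day 1 and 271 to 483 CPM (median 355) on day 5, and at 17.9 to 49.2 CPM (median 29.9) on day 1 and 159 to 359 CPM (median 243) on day 5, respectively. Neither overlapped between the days (LOX 2.01 ± 0.20, adjusted p = 6.83e-05; LOXL1 2.94 ± 0.25, adjusted p = 2.68e-05). The 2 enzymes that fell were the transglutaminase TGM2 (log2 fold change -1.32 ± 0.35 SE, adjusted p = 0.0158) and the lysyl oxidase relative LOXL4 (log2 fold change -1.05 ± 0.32 SE, adjusted p = 0.0307), both with overlapping values. Without the 3 libraries of pig 1325, 22 enzymes rose and 2 fell. Without pig 1323, 19 rose, and without pig 1324, 18, with no fall called in either fit.

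Among proteins that organize the matrix without being its main fibers, CCN4 and CTHRC1 rose most. Of 19 matricellular genes tested, 9 rose and 2 fell. CCN4, a secreted WNT target, had the largest rise among genes with a mean log2 CPM of at least 5 whose days did not overlap, from 0.454 to 1.55 CPM (median 0.966) on day 1 to 45.9 to 179.9 CPM (median 87.6) on day 5 (log2 fold change 6.82 ± 0.48 SE, adjusted p = 1.43e-05). CTHRC1, secreted by activated fibroblasts, went from 3.74 to 10.1 CPM (median 6.20) on day 1 to 146 to 404 CPM (median 226) on day 5 (log2 fold change 5.25 ± 0.34 SE, adjusted p = 8.61e-06). Neither gene overlapped between the days, and every day 5 sample of CCN4 was over 20 times above every day 1 sample. Fibronectin, FN1, a scaffold of granulation tissue, was at 244 to 579 CPM (median 327) on day 1 and 1520.1 to 3855 CPM (median 2405) on day 5 (log2 fold change 2.94 ± 0.28 SE, adjusted p = 5.02e-05). SPARC, a collagen-binding protein, was at 1815 to 4777 CPM (median 2542) on day 1 and 6324 to 11915 CPM (median 7668) on day 5 (log2 fold change 1.53 ± 0.27 SE, adjusted p = 0.00217). The 2 members that fell were TNXB, a tenascin of uninjured dermis (log2 fold change -2.75 ± 0.49 SE, adjusted p = 0.00221), and SMOC1 (log2 fold change -2.44 ± 0.63 SE, adjusted p = 0.0145). TNC, the tenascin of wounds, did not pass the test: it ranged over 203 to 3268 CPM (median 998) on day 1 and 2302 to 3729 CPM (median 2757) on day 5 (log2 fold change 1.5 ± 0.59 SE, adjusted p = 0.0784). For POSTN, periostin, the values were 197 to 929 CPM (median 345) on day 1 and 24.0 to 740.4 CPM (median 174) on day 5 (log2 fold change -1.13 ± 0.54 SE, adjusted p = 0.139), while day 0 skin of the same pigs held 2918 to 3949.9 CPM.

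Among 14 small leucine-rich proteoglycans, which set the spacing of collagen fibrils, 9 rose and none fell, with a median log2 fold change of 1.34. ASPN, asporin, was at 12.8 to 58.8 CPM (median 22.2) on day 1 and 290.4 to 943 CPM (median 615) on day 5 (log2 fold change 4.59 ± 0.47 SE, adjusted p = 7.5e-05). LUM, lumican, was at 95.0 to 142 CPM (median 116) on day 1 and 606 to 1676 CPM (median 1048) on day 5 (log2 fold change 3.23 ± 0.24 SE, adjusted p = 1.66e-05). DCN, decorin, the most abundant of these in uninjured dermis, was at 525 to 927 CPM (median 689) on day 1 and 1210.1 to 1627 CPM (median 1456) on day 5 (log2 fold change 1.13 ± 0.16 SE, adjusted p = 0.000524). The days did not overlap for any of the 3. PODNL1 rose from 0 to 3.69 CPM (median 0.521) on day 1 to 1.85 to 15.8 CPM (median 8.51) on day 5, at low counts and with overlap (log2 fold change 3.55 ± 0.90 SE, adjusted p = 0.0133). Of 14 elastic fiber genes, 5 rose and 3 fell, beside 15.5% and 13.9% of all genes tested. Among them EFEMP2, which helps assemble elastin (log2 fold change 2.65 ± 0.16 SE, adjusted p = 7.76e-06), and EMILIN1 (log2 fold change 1.84 ± 0.21 SE, adjusted p = 0.000136) rose without overlap, while the TGF-beta binding protein LTBP4 (log2 fold change -1.62 ± 0.29 SE, adjusted p = 0.00218) and EFEMP1 (log2 fold change -1.37 ± 0.40 SE, adjusted p = 0.026) fell. Without the 3 libraries of pig 1325, 6 elastic fiber genes rose and 1 fell, and without pig 1324, 4 rose and 1 fell.

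Matrix-degrading enzymes and hyaluronan genes moved in part. Of 21 metalloproteinases and inhibitors, 8 rose and 2 fell. Over all alternatives 4 to 13 rose, with 5 without pig 1323 and 4 without pig 1324, and no fall was called in these 2 fits. MMP9, a gelatinase of leukocytes, was at 30.2 to 377 CPM (median 165) on day 1 and 269 to 838 CPM (median 651) on day 5 (log2 fold change 2.13 ± 0.49 SE, adjusted p = 0.00843), with some overlap. The macrophage elastase MMP12 had a wide spread, 0.0657 to 9.11 CPM (median 0.54) on day 1 and 1.11 to 46.8 CPM (median 28.7) on day 5 (log2 fold change 4.42 ± 1.31 SE, adjusted p = 0.0271). The collagenase MMP1 did not pass the test with all 12 samples (log2 fold change 2.48 ± 1.05 SE, adjusted p = 0.0985): day 1 wound A of pig 1325 stood at 239 CPM, the 5 other day 1 samples at 2.89 to 8.83 CPM and the day 5 samples at 23.6 to 172 CPM. Without that library its log2 fold change was 3.98 (adjusted p = 0.000286). MMP13 was listed at 0 in 4 of the 6 day 1 samples and stood at 0.37 to 22.6 CPM on day 5, a difference that did not pass the test (adjusted p = 0.198). TIMP1, the main inhibitor in wounds, was at 281 to 1754 CPM (median 587) on day 1 and 665 to 2094 CPM (median 1543) on day 5 (log2 fold change 0.99 ± 0.42 SE, adjusted p = 0.0975), whereas TIMP3 (log2 fold change -1.05 ± 0.36 SE, adjusted p = 0.0487) and TIMP4 (log2 fold change -1.46 ± 0.33 SE, adjusted p = 0.00756) fell.

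Of 13 hyaluronan genes, 4 rose and none fell. HAS2, which makes hyaluronan, was at 5.59 to 31.8 CPM (median 14.1) on day 1 and 26.3 to 72.1 CPM (median 46.4) on day 5 (log2 fold change 1.67 ± 0.32 SE, adjusted p = 0.00298). CEMIP, which degrades it, was at 5.85 to 19.8 CPM (median 12.3) on day 1 and 33.8 to 213 CPM (median 124) on day 5 without overlap (log2 fold change 3.41 ± 0.55 SE, adjusted p = 0.0012). HMMR, a hyaluronan receptor that is also a mitotic spindle protein and stands in the cell cycle list too, rose by 2.43 ± 0.27 SE on the log2 scale (adjusted p = 0.000128).

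**Figure D3:**
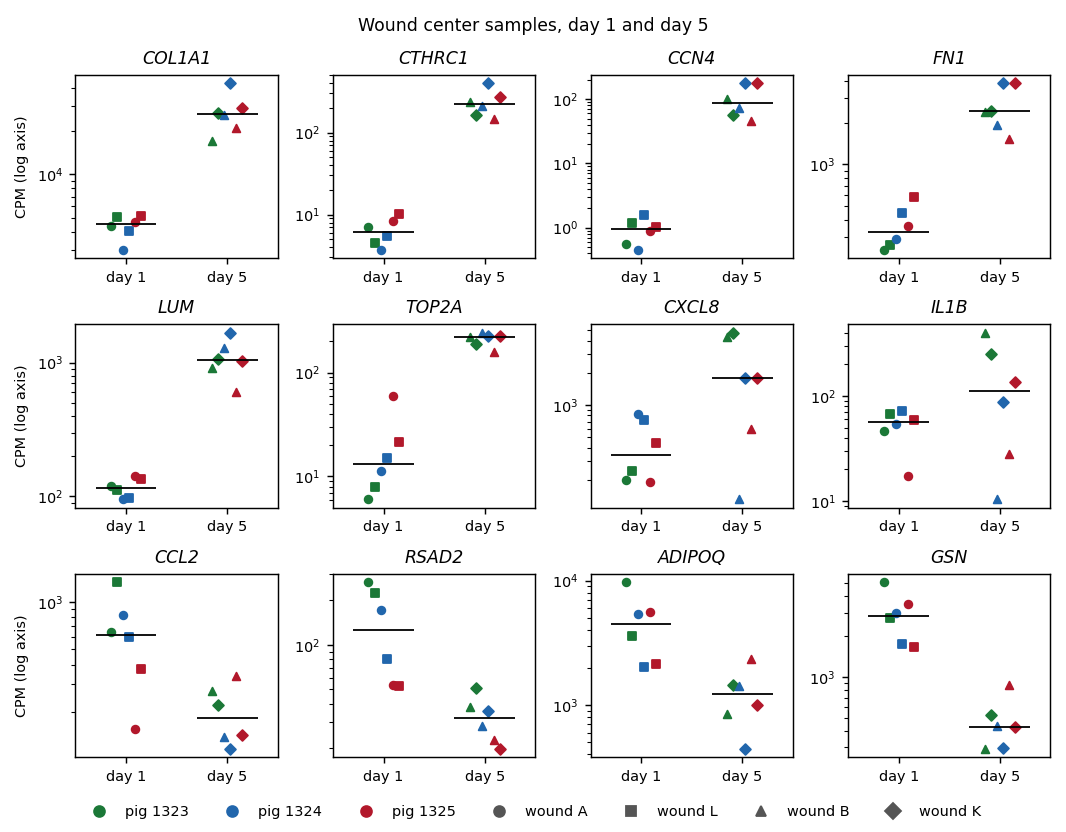
Level (CPM, log axis) of 12 genes in each wound center sample of day 1 and day 5; colors mark the pig, symbols the wound and black lines the median of the 6 samples. COL1A1, CTHRC1, CCN4, FN1, LUM and TOP2A are higher in all 6 day 5 samples, RSAD2 and GSN lower in all 6, and CXCL8, IL1B, CCL2 and ADIPOQ overlap between the days.

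Many fibroblast genes and many contractile genes of myofibroblasts and smooth muscle were higher on day 5. Of 17 fibroblast genes, 10 rose and none fell, and their summed level went from 2202 to 3342 CPM (median 2586) on day 1 to 5152 to 8779 CPM (median 6905) on day 5, with no overlap. SFRP2, a secreted WNT modulator of dermal fibroblasts, went from 36.7 to 418 CPM (median 181) on day 1 to 1597 to 4102 CPM (median 2461) on day 5 (log2 fold change 3.72 ± 0.68 SE, adjusted p = 0.00257). ADAM12, a protease of activated fibroblasts, was at 28.1 to 67.6 CPM (median 52.8) on day 1 and 284 to 529 CPM (median 378) on day 5 (log2 fold change 2.93 ± 0.24 SE, adjusted p = 2.45e-05). PDGFRB, the receptor through which PDGF recruits fibroblasts and pericytes, was at 289 to 499.9 CPM (median 337) on day 1 and 489 to 684 CPM (median 549.9) on day 5 (log2 fold change 0.71 ± 0.15 SE, adjusted p = 0.006). Day 0 skin of these pigs held 9.69 to 22.4 CPM of SFRP2 and 4.28 to 13.1 CPM of ADAM12.

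Of 16 contractile genes, 9 rose and 1 fell, with a median log2 fold change of 1.02. ACTA2, the smooth muscle actin that marks myofibroblasts, was at 102 to 250.2 CPM (median 192) on day 1 and 232 to 414 CPM (median 352) on day 5 (log2 fold change 1.01 ± 0.18 SE, adjusted p = 0.00191). Its values overlapped, and day 0 skin held 306 to 474 CPM. TAGLN, transgelin, was at 190.1 to 353 CPM (median 274) on day 1 and 375 to 777 CPM (median 501) on day 5, without overlap (log2 fold change 1.02 ± 0.19 SE, adjusted p = 0.00282). CALD1, caldesmon, rose from 335 to 487 CPM (median 407) on day 1 to 827 to 1219 CPM (median 1045) on day 5 (log2 fold change 1.40 ± 0.13 SE, adjusted p = 3.98e-05). TPM1, a tropomyosin, was at 127 to 656 CPM (median 193) on day 1 and 406 to 1161 CPM (median 732) on day 5 (log2 fold change 1.70 ± 0.42 SE, adjusted p = 0.0121). SYNPO2 was the member that fell (log2 fold change -1.10 ± 0.33 SE, adjusted p = 0.0277). The summed contractile genes were highest on day 1 in wound L of pig 1325, at 3718 CPM against 1469 to 1947 CPM in the other 5, which is 1 of the samples high in skeletal muscle genes. Without the 3 libraries of that pig, 8 contractile genes rose and 1 fell. Without pig 1323, 6 rose, and without pig 1324, 4, with no fall called in either fit.

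Of the signals that act on fibroblasts, 6 of 22 TGF-beta and activin genes rose and 2 fell. Of 21 WNT genes 7 rose and 1 fell, beside 15.5% and 13.9% of all genes tested. Without pig 1324, 3 TGF-beta and activin genes and 4 WNT genes rose and none fell. INHBA, the subunit of activin A, was at 5.98 to 32.8 CPM (median 17.6) on day 1 and 111 to 196 CPM (median 139.8) on day 5 (log2 fold change 2.99 ± 0.35 SE, adjusted p = 0.000175). The ligand TGFB2 was at 7.17 to 20.7 CPM (median 12.6) on day 1 and 22.4 to 101 CPM (median 60.0) on day 5 (log2 fold change 2.30 ± 0.39 SE, adjusted p = 0.0015). Both were separated between the days, whereas TGFB1, the most studied ligand of wounds, was at 97.4 to 256 CPM (median 172) on day 1 and 150.5 to 237 CPM (median 176) on day 5 (log2 fold change 0.13 ± 0.20 SE, adjusted p = 0.656). TGFB3 passed the test at a small difference (log2 fold change 0.60 ± 0.20 SE, adjusted p = 0.04) and lost the call in 16 of 22 alternative fits. LTBP3 (log2 fold change -1.01 ± 0.30 SE, adjusted p = 0.0283) and the receptor TGFBR1 (log2 fold change -0.36 ± 0.12 SE, adjusted p = 0.0401) were the 2 that fell, and without the 3 libraries of pig 1325 no fall in this list passed the test. WNT5A, a ligand that acts largely outside the beta-catenin route, was at 6.77 to 15.7 CPM (median 10.9) on day 1 and 174 to 521 CPM (median 295) on day 5 (log2 fold change 4.77 ± 0.30 SE, adjusted p = 8.05e-06), while SFRP5, an antagonist made by fat tissue, fell (log2 fold change -1.62 ± 0.51 SE, adjusted p = 0.0366). Of 25 genes of the EGF, FGF, HGF, IGF and PDGF families, 2 rose and 3 fell, beside the same shares of all genes. PDGFD (log2 fold change 1.14 ± 0.23 SE, adjusted p = 0.0042) and PDGFB (log2 fold change 0.51 ± 0.11 SE, adjusted p = 0.00651) were the 2 that rose. EGFR (log2 fold change -1.20 ± 0.23 SE, adjusted p = 0.00314) and PDGFC (log2 fold change -0.77 ± 0.23 SE, adjusted p = 0.0263) were among those that fell.

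Cell division genes rose as a whole. All 39 tested cell cycle and mitosis genes were higher on day 5, against 15.5% of all genes, and 37 of them had no overlap between the days. The median log2 fold change of the list was 2.99 and the range 0.73 to 4.41. In sum they made up 362 to 959 CPM (median 655) on day 1, 1474 to 2371 CPM on day 3 and 2075 to 2808 CPM (median 2606) on day 5, against 830.3 to 914 CPM in day 0 skin. CCNB1, the cyclin of mitosis, was at 1.58 to 21.5 CPM (median 2.57) on day 1 and 58.4 to 103 CPM (median 91.2) on day 5 (log2 fold change 4.41 ± 0.61 SE, adjusted p = 0.000491). TOP2A, the topoisomerase of dividing cells, was at 6.02 to 59.4 CPM (median 13.2) on day 1 and 157 to 243 CPM (median 222) on day 5 (log2 fold change 3.79 ± 0.45 SE, adjusted p = 0.000175). The proliferation marker MKI67 was at 11.2 to 49.6 CPM (median 15.6) on day 1 and 66.9 to 176 CPM (median 112) on day 5 (log2 fold change 2.64 ± 0.37 SE, adjusted p = 0.000523). On day 1 the highest sample for all 3 was wound A of pig 1325, with the high keratinocyte genes. CDC20, which activates the anaphase-promoting complex, rose too (log2 fold change 4.17 ± 0.61 SE, adjusted p = 0.000681). Without the 3 libraries of pig 1325, 38 of the 39 genes were called and the median was 3.51; over all alternatives 33 to 39 were called.

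Of 21 endothelial genes, 4 rose and none fell, beside 15.5% of all genes tested that rose, with a median log2 fold change of 0.23, and the summed level was 1839.5 to 3362 CPM (median 2042) on day 1 and 2157 to 3067 CPM (median 2524) on day 5, with overlap. In day 0 skin it was 598 to 812 CPM. Without day 1 wound A of pig 1323, 8 of the list rose. APLNR, the apelin receptor of sprouting vessels, was at 14.6 to 76.9 CPM (median 33.7) on day 1 and 121 to 188 CPM (median 153) on day 5 (log2 fold change 2.14 ± 0.36 SE, adjusted p = 0.00163). PLVAP, of fenestrated capillaries, was at 94.1 to 177 CPM (median 154) on day 1 and 254 to 380.2 CPM (median 302) on day 5 (log2 fold change 1.09 ± 0.14 SE, adjusted p = 0.000353), and neither overlapped between the days. The general endothelial marker PECAM1 was at 498 to 897 CPM (median 669.7) on day 1 and 542 to 811 CPM (median 621) on day 5 (log2 fold change -0.065 ± 0.15 SE, adjusted p = 0.78). KDR, the main VEGF receptor, passed the test narrowly (log2 fold change 0.39 ± 0.13 SE, adjusted p = 0.0365) and lost the call in 14 of 22 alternative fits.

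Among 15 angiogenic factors and receptors, 4 rose and 1 fell, beside 15.5% and 13.9% of all genes tested. With the wounds of a pig summed, or without pig 1323, pig 1324 or pig 1325, 2 rose. ANGPT1, which steadies vessels, was at 5.32 to 8.80 CPM (median 6.18) on day 1 and 10.4 to 28.6 CPM (median 18.7) on day 5 (log2 fold change 1.58 ± 0.25 SE, adjusted p = 0.00102). ESM1, of endothelial tip cells, was at 2.37 to 8.11 CPM (median 3.93) on day 1 and 5.61 to 10.9 CPM (median 9.55) on day 5 (log2 fold change 0.98 ± 0.20 SE, adjusted p = 0.00447). VEGFA, the leading vessel growth factor, was at 51.9 to 77.6 CPM (median 62.0) on day 1 and 57.2 to 94.0 CPM (median 75.6) on day 5 (log2 fold change 0.29 ± 0.15 SE, adjusted p = 0.177). The vasodilator peptide gene ADM fell (log2 fold change -1.03 ± 0.34 SE, adjusted p = 0.0416). Of 10 pericyte genes, 4 rose and 1 fell, beside the same shares of all genes. The rise was led by MCAM (log2 fold change 0.96 ± 0.14 SE, adjusted p = 0.00075), while CSPG4 fell (log2 fold change -1.20 ± 0.29 SE, adjusted p = 0.0113). With no replicate block 2 pericyte genes rose. Without pig 1323, 2 rose, and without pig 1324, 1, with no fall called without either pig. For 7 lymphatic vessel genes, none passed the test in the main fit. With DESeq2 2 were higher and 1 lower, and with edgeR on the summed wounds of a pig 2 were higher.

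**Figure D4:**
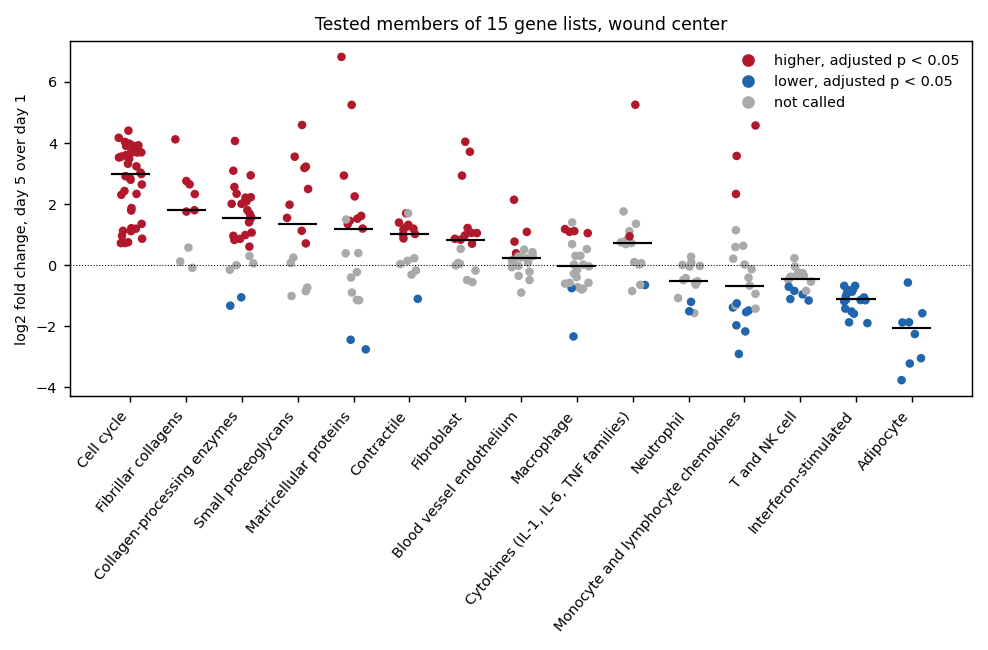
Log2 fold change (day 5 over day 1) of each tested member of 15 gene lists in the wound center; red and blue points passed the test upward and downward, grey points did not, and black lines mark the list medians. Cell cycle genes lie above 0 and interferon-stimulated and adipocyte genes below 0. The log2 fold change is positive in 12 of 15 cytokine, 3 of 15 neutrophil and 11 of 23 macrophage genes. Of all genes tested, 45.2% have a positive one. Most cytokine, neutrophil and macrophage points are grey.

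The cytokine list held genes of the interleukin-1 and interleukin-6 families, TNF, colony-stimulating factors and the IL10 family. Of 15 members tested, 2 rose and 1 fell, beside 15.5% and 13.9% of all genes tested. IL11, a cytokine of the interleukin-6 family that fibroblasts make, was at 0.894 to 9.52 CPM (median 3.56) on day 1 and 86.1 to 289.6 CPM (median 123) on day 5 without overlap (log2 fold change 5.26 ± 0.54 SE, adjusted p = 7.58e-05). IL33, an alarm signal of stromal cells, rose by a smaller amount (log2 fold change 0.95 ± 0.29 SE, adjusted p = 0.0325), and CSF1, the growth factor of macrophages, fell at the edge of the threshold (log2 fold change -0.65 ± 0.22 SE, adjusted p = 0.0497). The calls of IL33 and CSF1 were lost in 12 and 15 of 22 alternative fits. IL1B, an early cytokine of leukocytes, was at 17.4 to 72.0 CPM (median 56.1) on day 1 and 10.4 to 400.0 CPM (median 111) on day 5 (log2 fold change 1.11 ± 0.66 SE, adjusted p = 0.225). On day 5 wounds B and K of pig 1323 stood at 400.0 and 252 CPM, above every day 1 sample, while wound B of pig 1324 stood at 10.4 CPM, below every day 1 sample. IL1A was at 18.6 to 52.8 CPM (median 33.3) on day 1 and 22.1 to 233 CPM (median 91.8) on day 5 (log2 fold change 1.36 ± 0.50 SE, adjusted p = 0.0646). The antagonist IL1RN was at 64.0 to 293 CPM (median 184) on day 1 and 35.6 to 866 CPM (median 288) on day 5 (log2 fold change 0.73 ± 0.49 SE, adjusted p = 0.284). IL6 was at 3.86 to 230.1 CPM (median 29.8) on day 1 and 11.7 to 31.2 CPM (median 16.1) on day 5, with the wider range on day 1 (log2 fold change -0.85 ± 0.68 SE, adjusted p = 0.376). TNF and OSM had day 5 medians of 6.78 and 14.5 CPM against 6.85 and 9.85 CPM on day 1 (adjusted p = 0.867 and 0.265). IL10, which restrains inflammation, ranged over 3.86 to 20.0 CPM on day 1 and 4.44 to 25.6 CPM on day 5 (adjusted p = 0.912).

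Of 4 neutrophil chemokines tested none passed the test, with log2 fold changes of -0.45 to 2.18, 2 of them positive. CXCL8 was at 190.1 to 818 CPM (median 341) on day 1 and 132 to 4736 CPM (median 1781) on day 5 (log2 fold change 2.18 ± 0.80 SE, adjusted p = 0.0608). CXCL2 was at 117 to 482 CPM (median 345) on day 1 and 68.3 to 1812 CPM (median 775) on day 5 (log2 fold change 1.16 ± 0.61 SE, adjusted p = 0.178). For both genes the day 5 wounds of pig 1323 were the highest and wound B of pig 1324 the lowest of the 6. CXCL8 passed the test in 5 of 22 alternative fits, among them those with DESeq2 and with no replicate block. Of 15 neutrophil genes, 2 fell and none rose, beside 13.9% of all genes tested that fell, with a median log2 fold change of -0.52 and a summed level of 761 to 1629.6 CPM (median 875) on day 1 and 346 to 1351 CPM (median 681) on day 5. The count of falling genes was 0 without pig 1323 or pig 1324 and 4 without day 5 wound B of pig 1325. NCF1, a subunit of the phagocyte oxidase, was among those that fell (log2 fold change -1.20 ± 0.31 SE, adjusted p = 0.0159). The calprotectin genes S100A8 and S100A9 were at 33.7 to 97.6 CPM (median 62.9) on day 1 and 19.3 to 154 CPM (median 43.9) on day 5, and at 103 to 264 CPM (median 184) on day 1 and 44.3 to 351 CPM (median 112) on day 5 (adjusted p = 0.945 and 0.24). For S100A12 the values were 73.0 to 150.3 CPM (median 116) on day 1 and 70.2 to 194 CPM (median 88.1) on day 5 (adjusted p = 0.955). In day 0 skin the 3 genes stood at 0.998 to 7.86 CPM, so that both days were above uninjured skin.

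Of 21 chemokines of monocytes and lymphocytes tested, 3 rose and 7 fell, beside 15.5% and 13.9% of all genes tested. The count of falling genes was 3 without day 5 wound K of pig 1324 or wound B of pig 1323, 4 without day 5 wound K of pig 1323 or wound B of pig 1324, 3 without pig 1323 and 2 without pig 1324. CXCL14, a chemokine of uninjured skin, rose from 56.3 to 150.5 CPM (median 75.0) on day 1 to 1158 to 2332 CPM (median 2181) on day 5 (log2 fold change 4.58 ± 0.31 SE, adjusted p = 1.17e-05). CCL20, which attracts CCR6-bearing lymphocytes and dendritic cells, rose from 0.742 to 7.42 CPM (median 3.68) on day 1 to 4.76 to 38.8 CPM (median 11.9) on day 5 (log2 fold change 2.33 ± 0.41 SE, adjusted p = 0.00187). CCL2, which draws monocytes, fell from 156 to 1326 CPM (median 618) on day 1 to 116 to 336 CPM (median 183) on day 5 (log2 fold change -1.53 ± 0.44 SE, adjusted p = 0.0233). The interferon-induced CXCL10 fell from 13.3 to 108 CPM (median 56.6) on day 1 to 7.49 to 18.1 CPM (median 10.6) on day 5 (log2 fold change -2.17 ± 0.33 SE, adjusted p = 0.000941), as did CCL8 (log2 fold change -1.97 ± 0.55 SE, adjusted p = 0.0212). The third chemokine that rose was CCL17.

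Macrophage genes as a list had a summed level of 5106 to 8659 CPM (median 7205) on day 1 and 5566 to 9991 CPM (median 6623) on day 5, against 1660.1 to 1951 CPM in day 0 skin. Of 23 tested, 4 rose and 2 fell, beside 15.5% and 13.9% of all genes tested, and the median log2 fold change was -0.037. The 4 that rose were the complement genes C1QA, C1QB and C1QC and the lipid receptor TREM2. C1QA was at 72.9 to 164 CPM (median 128) on day 1 and 159.6 to 353 CPM (median 283) on day 5 (log2 fold change 1.12 ± 0.26 SE, adjusted p = 0.00931). TREM2 was at 2.59 to 14.1 CPM (median 7.50) on day 1 and 12.3 to 26.1 CPM (median 17.2) on day 5 (log2 fold change 1.18 ± 0.33 SE, adjusted p = 0.0204). MERTK, a receptor for apoptotic cells, fell (log2 fold change -0.75 ± 0.22 SE, adjusted p = 0.0271), and so did CD5L. CD163, the hemoglobin scavenger receptor, was at 105 to 864 CPM (median 378) on day 1 and 327 to 507 CPM (median 450.3) on day 5 (log2 fold change 0.022 ± 0.41 SE, adjusted p = 0.972). SPP1, osteopontin, was at 269.7 to 934 CPM (median 558) on day 1 and 514 to 1133 CPM (median 833) on day 5 (log2 fold change 0.53 ± 0.37 SE, adjusted p = 0.298). Without the 3 libraries of pig 1325, 2 macrophage genes rose and 3 fell, and without pig 1324, 1 rose and 1 fell.

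Of 16 T and NK cell genes, 5 fell and none rose, beside 13.9% of all genes tested that fell, with CD2 (log2 fold change -1.15 ± 0.20 SE, adjusted p = 0.00203) and the interleukin-7 receptor IL7R (log2 fold change -1.11 ± 0.35 SE, adjusted p = 0.0352) the largest. Their summed level was 375 to 689 CPM (median 514) on day 1 and 293 to 426 CPM (median 321) on day 5. The 5 were 1 without day 5 wound B of pig 1324, 2 without day 5 wound K of that pig, and 3 without day 1 wound A of pig 1324, day 1 wound L of pig 1323 or day 5 wound B of pig 1323. Without pig 1323 1 fell and without pig 1324 0. Of 11 B and plasma cell genes 2 fell, among them the adaptor BLNK (log2 fold change -0.71 ± 0.23 SE, adjusted p = 0.0395), and of 5 mast cell genes 1, the IgE receptor chain FCER1A (log2 fold change -1.19 ± 0.34 SE, adjusted p = 0.0231). The same 13.9% of all genes stands beside both counts. The counts of falling T and NK, B and mast cell genes were 3, 3 and 1 without the 3 libraries of pig 1325. Without pig 1323 or pig 1324 no B or mast cell gene was called lower.

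Interferon-stimulated genes, which cells switch on in response to interferons, fell together. All 18 tested were lower on day 5, against 13.9% of all genes, with a median log2 fold change of -1.12, and 5 of them had no overlap between the days (5.39% of all genes tested had none in this direction). Their summed level went from 2535 to 7096 CPM (median 4817) on day 1 to 1499 to 2652 CPM (median 2165) on day 5, and in day 0 skin it was 498 to 614 CPM. RSAD2, viperin, an antiviral enzyme, was at 52.4 to 265 CPM (median 126) on day 1 and 19.7 to 50.9 CPM (median 31.9) on day 5 (log2 fold change -1.89 ± 0.23 SE, adjusted p = 0.000202). IFIT2 was at 54.3 to 434 CPM (median 237) on day 1 and 19.6 to 87.6 CPM (median 53.8) on day 5, with overlap (log2 fold change -1.87 ± 0.24 SE, adjusted p = 0.000311). On day 3 the summed level spanned 2409.6 to 9267 CPM, wider than on the other days. Leaving out pig 1324 left 12 of the 18 called, the fewest of all alternatives.

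Of 23 immediate early genes, 3 rose and 1 fell, beside 15.5% and 13.9% of all genes tested. Among them the nuclear receptors NR4A1 (log2 fold change 1.89 ± 0.41 SE, adjusted p = 0.00624) and NR4A2 (log2 fold change 1.23 ± 0.30 SE, adjusted p = 0.0105) rose and the shear-responsive factor KLF2 (log2 fold change -0.73 ± 0.15 SE, adjusted p = 0.00414) fell. FOS was at 98.7 to 519 CPM (median 233) on day 1 and 122 to 332 CPM (median 203) on day 5 (log2 fold change -0.34 ± 0.37 SE, adjusted p = 0.516). Among 24 hypoxia-response genes, 3 rose and 2 fell, beside the same shares of all genes. CA12, a carbonic anhydrase, rose from 12.9 to 29.3 CPM (median 20.8) on day 1 to 118 to 227 CPM (median 147) on day 5 without overlap (log2 fold change 3.02 ± 0.24 SE, adjusted p = 2.1e-05), and LDHA, which makes lactate, rose less (log2 fold change 0.91 ± 0.21 SE, adjusted p = 0.00918). The hexokinase of muscle and fat HK2 fell (log2 fold change -2.03 ± 0.37 SE, adjusted p = 0.00233). Of 20 clotting and fibrinolysis genes, 6 rose and 3 fell, beside the same shares. The urokinase receptor PLAUR was at 40.9 to 92.1 CPM (median 68.0) on day 1 and 117 to 340.2 CPM (median 209) on day 5, without overlap (log2 fold change 1.74 ± 0.22 SE, adjusted p = 0.000295), and TFPI, an inhibitor of tissue factor, rose (log2 fold change 2.19 ± 0.74 SE, adjusted p = 0.0461). The clotting factor F5 (log2 fold change -1.54 ± 0.28 SE, adjusted p = 0.00246) and tissue factor, F3 (log2 fold change -0.85 ± 0.21 SE, adjusted p = 0.0134), fell.

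Of 15 genes of prostaglandin and leukotriene synthesis, 3 rose and 3 fell, beside 15.5% and 13.9% of all genes tested. The prostaglandin E synthase PTGES (log2 fold change 1.43 ± 0.27 SE, adjusted p = 0.00295) and the constitutive cyclooxygenase PTGS1 (log2 fold change 1.11 ± 0.34 SE, adjusted p = 0.0296) rose. The lipoxygenase ALOX5, which makes leukotrienes, was at 4.50 to 7.88 CPM (median 6.18) on day 1 and 0.861 to 2.80 CPM (median 1.84) on day 5 without overlap (log2 fold change -1.78 ± 0.30 SE, adjusted p = 0.00156), and thromboxane synthase, TBXAS1, fell too (log2 fold change -1.52 ± 0.35 SE, adjusted p = 0.00881). The inducible cyclooxygenase PTGS2 was at 17.4 to 130.1 CPM (median 33.0) on day 1 and 33.0 to 114 CPM (median 45.8) on day 5 (log2 fold change 0.62 ± 0.45 SE, adjusted p = 0.33).

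Fat cell genes were abundant in the day 1 centers and lower on day 5. All 8 tested fell (of 11 listed, 8 were found by symbol), against 13.9% of all genes tested, with a median log2 fold change of -2.06. Of the 8, 3 had no overlap between the days (5.39% of all genes tested had none in this direction). Their summed level was 5326 to 20287 CPM (median 10446) on day 1 and 960.2 to 6023 CPM (median 2691) on day 5, with 1 day 5 sample, wound B of pig 1325, inside the range of day 1. Day 0 skin held 762 to 2395 CPM and the day 1 edges 306 to 2064 CPM. ADIPOQ, adiponectin, was at 2022 to 9668 CPM (median 4518) on day 1 and 441 to 2362 CPM (median 1214) on day 5 (log2 fold change -1.87 ± 0.47 SE, adjusted p = 0.0127). LEP, leptin, was at 68.1 to 315 CPM (median 166) on day 1 and 0.215 to 68.4 CPM (median 12.7) on day 5 (log2 fold change -3.76 ± 1.05 SE, adjusted p = 0.0209). DGAT2, which completes triglyceride synthesis, was at 791 to 2648 CPM (median 1256) on day 1 and 29.1 to 788 CPM (median 138) on day 5, without overlap by a narrow margin (log2 fold change -3.22 ± 0.75 SE, adjusted p = 0.00909). The calls depended on which pig was left out: 1 of the 8 was left without pig 1323 and 0 without pig 1324, against 8 without pig 1325. The part of this fall in the other results was not tested.

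Of the remaining cell types, no keratinocyte gene passed the test (16 tested of 22 listed, 73% found by symbol), with 1 day 1 sample high as given above. With no replicate block, 9 keratinocyte genes were lower. No hair follicle, skeletal muscle or erythrocyte gene was called in the main comparison, of 2, 5 and 4 tested. MITF, the regulator of melanocytes that other cells also express, fell (log2 fold change -0.63 ± 0.21 SE, adjusted p = 0.0404) and was the only tested gene of the melanocyte list. Of 6 Schwann cell genes 2 fell, beside 13.9% of all genes tested, among them the nerve growth factor receptor NGFR (log2 fold change -3.04 ± 0.76 SE, adjusted p = 0.0125).

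Of the 12 genes with the largest rise among those with a mean log2 CPM of at least 5 and no overlap, 4 stand in none of these lists. C1QTNF3, a secreted relative of adiponectin, rose from 1.01 to 4.98 CPM (median 1.99) on day 1 to 81.5 to 316 CPM (median 152) on day 5 (log2 fold change 6.29 ± 0.45 SE, adjusted p = 1.46e-05). MASP1, a protease of the lectin complement pathway, went from 0.844 to 6.09 CPM (median 1.25) on day 1 to 26.1 to 203 CPM (median 120.1) on day 5 (log2 fold change 5.72 ± 0.68 SE, adjusted p = 0.000176). CHST6, a sulfotransferase that modifies keratan sulfate, and KIF26B, a kinesin relative, rose by 4.51 ± 0.37 and 4.23 ± 0.38 SE on the log2 scale (adjusted p = 2.45e-05 and 4.24e-05). In day 3 centers of the same pigs these 4 genes and CCN4, CTHRC1, IL11, WNT5A and ASPN had highest values below the day 5 median of the same gene. That statement on day 3 does not cover CXCL14, CCNB1 and CDC20, the rest of the 12. All 12 were chosen for high day 5 values, which favors lower values on day 3.

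DGAT2, described with the fat cell genes, was 1 of the 12 genes with the largest fall under the same conditions on level and overlap. AGT, angiotensinogen, which fat tissue makes, was at 52.1 to 496 CPM (median 206) on day 1 and 9.83 to 30.5 CPM (median 14.7) on day 5 (log2 fold change -3.47 ± 0.57 SE, adjusted p = 0.00131). The actin-severing protein GSN, gelsolin, was at 1670.3 to 5029 CPM (median 2853) on day 1 and 291 to 876 CPM (median 426) on day 5 (log2 fold change -2.61 ± 0.34 SE, adjusted p = 0.000325). PPL, periplakin of epithelial junctions (log2 fold change -3.29 ± 0.53 SE, adjusted p = 0.0012), and SLPI, an antiprotease of epithelia (log2 fold change -3.20 ± 0.79 SE, adjusted p = 0.012), were highest on day 1 in wound A of pig 1325, the library high in keratinocyte genes. Without it PPL fell by 2.71 and SLPI fell by 2.09 on the log2 scale. ITGA7, a laminin receptor of muscle, was at 685 to 1799 CPM (median 966) on day 1 and 75.5 to 541 CPM (median 237) on day 5 (log2 fold change -2.26 ± 0.48 SE, adjusted p = 0.00549). FGL2, a membrane prothrombinase of leukocytes and endothelium, was at 224 to 654 CPM (median 366) on day 1 and 61.6 to 139 CPM (median 96.6) on day 5 (log2 fold change -1.94 ± 0.31 SE, adjusted p = 0.00106). The heat shock protein CRYAB, the giant protein AHNAK, SGK2, PPP1R1B and CROCC2 fell by 2.47, 2.07, 2.17, 2.06 and 3.13 on the log2 scale. AHNAK and SLPI each had 2 rows with their symbol, so that reads may be split.

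The change from day 1 to day 5 was then compared between the center and the edge of the same wounds, as an interaction of day and location with the wound as block. Of 15348 genes tested, the change was higher in the center for 790 (5.15%) and lower for 1075 (7.00%) by edgeR's quasi-likelihood test. For cell cycle genes the difference was broad: in 38 of 39 the rise was larger in the center, and the median difference was 2.64 on the log2 scale. The edge stood at 1626 to 2272 CPM of summed cell cycle genes already on day 1 and at 1526 to 2748 CPM on day 5, so that center and edge overlapped on day 5. The edge samples also held 58339 to 81549 CPM of keratinocyte genes on day 1 and 38524 to 73781 CPM on day 5, whose part in the difference was not tested.

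Of the called genes with a mean log2 CPM of at least 5, MMP1 differed most upward: its change was larger in the center by 5.88 ± 0.78 SE, adjusted p = 0.00165, with the edge at 485 to 903 CPM (median 607) on day 1 and at 31.3 to 191 CPM (median 125) on day 5. For COL7A1 the difference was 4.31 ± 0.79 SE, adjusted p = 0.00567. CCNB1 (3.72 ± 0.61 SE, adjusted p = 0.00365), the ribonucleotide reductase subunit RRM2 (3.55 ± 0.41 SE, adjusted p = 0.00104) and CDC20 (3.38 ± 0.58 SE, adjusted p = 0.00446) followed the cell cycle list, of which they are members. CXCL14 rose more in the center (3.44 ± 0.40 SE, adjusted p = 0.00106), while the edge stood at 146 to 475 CPM on day 1 and 444 to 1435 CPM on day 5.

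Genes of fat cells made up the other end of the interaction. For 7 of 8 adipocyte genes the change was lower in the center, against 7.00% of all genes tested. The fat droplet proteins PLIN1 (-4.19 ± 1.19 SE, adjusted p = 0.0384) and CIDEC (-4.36 ± 1.11 SE, adjusted p = 0.0248), ADIPOQ (-4.41 ± 1.26 SE, adjusted p = 0.0389) and the glucose transport regulator TRARG1 (-4.18 ± 1.22 SE, adjusted p = 0.0425) were among the 6 genes with the largest difference. The others were MYOC, myocilin (-4.61 ± 1.36 SE, adjusted p = 0.0434), and the retinaldehyde dehydrogenase ALDH1A1 (-4.53 ± 1.15 SE, adjusted p = 0.0248). ADIPOQ at the edge ranged over 10.1 to 674 CPM on day 1 and 136 to 1561 CPM on day 5. Leaving out 1 wound at a time left 3 to 8 adipocyte genes and 35 to 39 cell cycle genes called, with 3 adipocyte genes without day 1 wound A or L of pig 1323, day 1 wound A of pig 1324, day 5 wound K of pig 1324 or day 5 wound K of pig 1325.

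The matrix lists were set beside the 5.15% and 7.00% of all genes whose change was higher or lower in the center. For fibrillar collagens the difference was called in 1 gene upward and 2 downward of 9, and for collagen-processing enzymes in 3 and 2 of 28. Among other collagens the counts were 4 and 5 of 20, among elastic fiber genes 0 and 5 of 14, among matricellular genes 1 and 3 of 19 and among metalloproteinases and their inhibitors 1 and 1 of 22. The log2 fold change of COL1A1 at the edge was 1.58 ± 0.41 SE (adjusted p = 0.0238), and its difference to the center was 1.12 ± 0.37 SE, adjusted p = 0.0674. For FN1 the difference was 0.07 ± 0.34 SE, adjusted p = 0.918, with a log2 fold change of 2.80 ± 0.43 SE at the edge (adjusted p = 0.00213). Of 21 endothelial genes, 7 had a lower change in the center, KDR among them (-1.18 ± 0.30 SE, adjusted p = 0.0256). Summed endothelial genes at the edge stood at 401 to 1012 CPM on day 1, below every center sample of that day, and at 1186 to 1771 CPM on day 5.

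**Figure D5:**
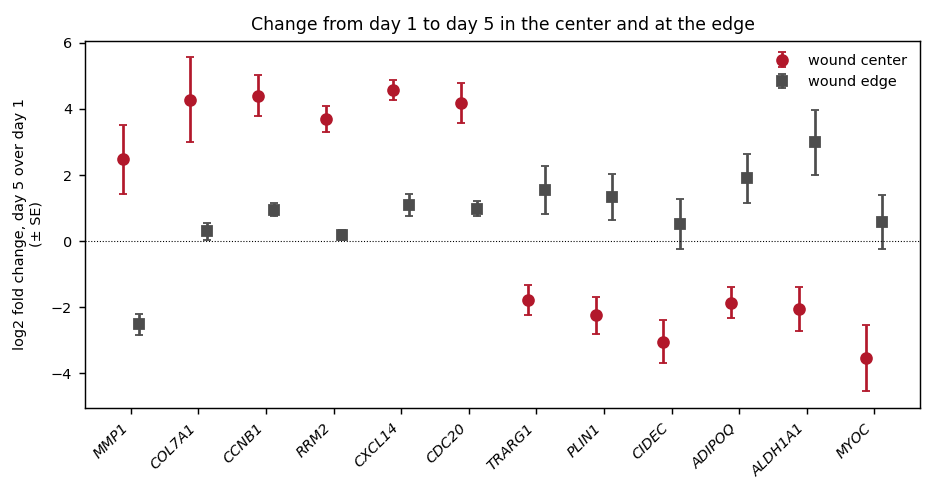
Log2 fold change (day 5 over day 1, ± SE) in the wound center (circles) and at the wound edge (squares) for the 6 genes whose change differed most in each direction; each location was fitted on its 12 samples. The first 6 genes have higher estimates in the center than at the edge, and the last 6 have estimates below 0 in the center and above 0 at the edge.

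Day 3 centers of the same pigs were compared as a description. Among them were libraries with up to 44815 CPM of summed keratinocyte genes (median 552) and up to 27333 CPM of skeletal muscle genes (median 12.4), whose part in the values was not tested. Fibrillar collagens made up 1.53 to 7.69% of counts on day 3, reaching into the ranges of both day 1 and day 5. For cell cycle genes the day 3 range, given above, lay above all day 1 samples. Summed fibroblast genes spanned 1730.5 to 8257 CPM and summed adipocyte genes 2017 to 13432 CPM, ranges that overlap those of both other days. These day 3 and day 0 values are descriptions and were not tested.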

How the data were processed

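One deposited table held raw read counts per gene, as whole numbers, and a second held FPKM values, which the authors' processing had scaled by gene length and library size; FPKM served only to compare levels between genes. The aligner, counter and genome build are not given in the sources used here. Of 30461 genes, 12300 had a symbol in the name column and 9387 took that of their protein match, and of several rows with 1 symbol the one named or with most counts was used.

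Counts were analysed with edgeR 4.0.16 in R 4.3.3: genes were kept by filterByExpr (minimum count 10, minimum total 15), scaled by TMM and tested by the quasi-likelihood F test with Benjamini-Hochberg adjustment at 0.05, with the pig as block. SE was the fold change divided by the root of F. The difference between center and edge was fitted on 24 samples with the wound as block. CPM levels used TMM factors over the samples of these 3 pigs shown here. The code was tested on simulated counts. Alternatives were DESeq2 1.42.0, other scaling, no filter, no block, wounds of a pig summed, and leaving out samples or pigs; leaving out 3 libraries of pig 1325 was chosen after seeing the data.

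The labels give the animal, and the pig was set as block by design. Deviations of a pig's day 1 and day 5 samples from their day means correlated weakly, at 0.172, 0.159 and 0.159. Those of the edge and center of a wound correlated at -0.122 to 0.577. Totals per sample limit the precision of low counts. Members and lists were chosen with earlier results of these data known. Named genes were the 12 largest called changes in each direction without overlap and with a mean log2 CPM of at least 5, the 5 most abundant on each day, the 6 largest interactions in each direction, the 2 largest called changes in each direction in each list (mean log2 CPM at least 2) and a panel of 45 genes; some of these are not reported here. Genes outside this rule that complete a count (such as C1QB, C1QC, CD5L, CCL17, COL5A3, COL24A1 and COL27A1) were named after their values were seen. No sequences are given.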

Additional observations from a re-analysis of the deposited data

Results flagged for a closer look

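In 10 of 164 groups of 6 samples tested, 1 sample stood apart from the other 5 (Dixon's ratio); by chance about 1 group in 20, here 8.2, would. Of the 10, 8 were samples of pig 1325. Day 1 wound A of that pig was high in summed keratinocyte genes (24492 CPM), MMP1 (239 CPM), MMP13 (6.09 CPM) and MKI67 (49.6 CPM) and low in IL1B (17.4 CPM). Day 1 wound L was high in summed contractile genes (3718 CPM) and summed skeletal muscle genes (11827 CPM), and day 5 wound K in summed skeletal muscle genes (1902 CPM). The other 2 were PTGS2 in day 1 wound L of pig 1323 (130.1 CPM) and IL6 in day 5 wound B of pig 1324 (31.2 CPM).

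The change from day 1 to day 5 differed between center and edge in an interaction test for 15 of the named genes. On the log2 scale the difference, center minus edge, was 5.88 for MMP1, 4.31 for COL7A1, 3.72 for CCNB1, 3.55 for RRM2, 3.44 for CXCL14, 3.38 for CDC20, 3.26 for TOP2A and 2.06 for MKI67. It was -4.61 for MYOC, -4.53 for ALDH1A1, -4.41 for ADIPOQ, -4.36 for CIDEC, -4.19 for PLIN1, -4.18 for TRARG1 and -1.18 for KDR. The call of COL7A1 was lost without the block.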

How the results depend on the processing

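Without pig 1323, 1344 genes were higher and 632 lower (250 lower at least 2-fold), and without pig 1324, 983 and 380 (216), but without pig 1325, 1907 and 1586 (860). With the wounds of a pig summed, 1476 were higher and 968 lower. Without TMM factors 3018 were lower and 36.5% of calls higher, against 52.8%. Leaving out single samples gave 1737 to 2201 genes higher (899 to 1081 at least 2-fold) and 1218 to 2032 lower (505 to 931 at least 2-fold), with 1218 and 505 without day 1 wound A of pig 1324 and 1284 lower without day 5 wound K of pig 1325. The cause of these shifts was not tested. DESeq2 called 2512 and 2560 genes, all 4150 of the edgeR calls among them.

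With no replicate block for the pig, 2193 genes were higher and 2115 lower, and 3933 of the 4150 calls were shared. For the difference between center and edge, the fit with no replicate block for the wound gave 753 higher and 1123 lower. DESeq2 gave 1236 and 1702. Leaving out 1 wound gave 514 to 1095 higher and 466 to 1464 lower: 466 lower without day 1 wound A of pig 1324, 514 higher and 511 lower without day 5 wound K of pig 1324, and 704, 698, 646 and 578 lower without day 5 wounds B and K of pig 1323 and B and K of pig 1325.

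Named genes that changed sign did not pass the test either way. IL6 was 0.25 on the log2 scale without pig 1323. TNF was -0.016 without TMM and -0.19 without pig 1323 (-0.094 to 0.38 without single samples). IL10 was -0.11 without the 3 libraries or without pig 1325, -0.044 without TMM and -0.19 without pig 1323 (-0.26 to 0.23). S100A8 was 0.095 with no replicate block and 0.37 without pig 1324 (-0.39 to 0.17), and S100A12 0.017 and 0.27 (-0.20 to 0.094). CD163 was -0.094 without TMM, -0.064 with no replicate block and -0.48 without pig 1323 (-0.27 to 0.34). PECAM1 was -0.15 to 0.058 without single samples. The cause was not tested.

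Of 123 named genes that passed the test, 57 did so in all 22 alternative fits and 25 lost the call in at least 5. Among the latter were FCER1A, SYNPO2, EFEMP1, CCL8, PTGS1, MMP12, MERTK, COL7A1, PDGFC, CCL2, LTBP3, SFRP5, LOXL4, IL7R, TIMP3, MITF, BLNK, TFPI, ADM and TGFBR1. Without pig 1324, 59 lost it, without pig 1323, 48, and without pig 1325, 13; each of these fits holds 8 samples of 2 pigs.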
